A study of Mus musculus with 24 samples.

Results

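The comparison described here set CD11b-sorted cells from the striatum of lipopolysaccharide-treated (LPS) male mice born to dams with maternal immune activation (MIA) against the same cells from LPS-treated control offspring. It used 5 of the 24 deposited RNA libraries, chosen by their labels: MIA striatum LPS replicates 1 and 2, and control striatum LPS replicates 1, 2 and 3. Every one of the 17139 genes that passed the filter on low counts was tested. All mice were males of 8 to 10 weeks and received LPS at 4500 endotoxin units per gram of body weight, or saline, into the peritoneum 18 h before collection. The sources used here give neither the strain nor the agent, the day of pregnancy or the litter. Prenatal treatment and litter therefore cannot be told apart. Nothing says whether replicates came from separate mice. The p-values therefore describe only scatter between libraries, estimated over the 23 libraries fitted together in 8 groups and not over these 5 alone. The 2 MIA libraries were closer to each other than any control pair, with a chi-square per gene of 21.4 against 113.7 to 160.8, and still differed by more than sampling noise. CD11b is a surface integrin that microglia share with monocytes, neutrophils and border macrophages. The beads therefore gave a fraction rich in microglia, taken after the meninges had been removed and the tissue digested with papain.

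A further MIA striatum LPS library, replicate 3, carries a note of exclusion in its title and stayed out of every main fit. The sources used here do not give the reason. It stood apart from the other libraries: its share of mitochondrial counts was 6.16%, against 2.49% and 2.37% in the MIA libraries used and 1.93% to 4.37% in the controls. Its neuron markers summed to 583 CPM (counts scaled to a common library size), against 49.3 to 92.1 CPM in the 5 libraries used. Total counts in the 23 libraries of the fit ran from 19453272 to 29480464. Microglial genes were abundant in all 5 libraries, and the 27 homeostatic microglia genes together held 59200 to 77700 CPM.

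As background, LPS binds the receptor TLR4 with its co-receptor CD14. Signals from the cell surface activate NF-kB and cytokine genes, and signals from endosomes activate IRF3 and the gene for interferon beta. Secreted type I interferon acts through JAK kinases on a factor complex that holds IRF9, and this complex binds the interferon-stimulated response element (ISRE) in the promoters of antiviral genes. Microglia respond to peripheral LPS with both programmes.

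After LPS, 25 genes differed between MIA and control striatum, which is 0.146% of the genes tested (edgeR's quasi-likelihood test, Benjamini-Hochberg adjusted p under 0.05). Of these, 18 were lower in MIA (0.105% of genes tested) and 7 were higher (0.0408%). The falls ran from 1.8-fold to 10.2-fold and the rises from 2.07-fold to 3.01-fold. In each of the 25 genes the 2 MIA libraries lay wholly outside the range of the 3 controls. Such separation was common in the table as a whole, since both MIA libraries lay below all controls for 10.6% of genes and above them for 11.8%. At an unadjusted p under 0.05 stood 1556 genes, or 9.08%, with 797 lower (4.65%) and 759 higher (4.43%). Of the 18 lower genes, 13 belonged to 5 lists of interferon-related genes, and none of the 7 higher genes did. These lists held 137 of the 17139 genes tested. They were chosen with earlier results of these data known, so the 13 is a description and not a test.

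These counts rested on few libraries. Without MIA striatum LPS replicate 1, or without replicate 2, a single gene passed, and it was not one of the 25. Adding the excluded library left 1 called gene, Ifi207. Leaving out control replicate 1 gave 15 calls, leaving out control replicate 3 gave 90, and leaving out MIA cortex LPS replicate 3, which enters through the estimate of the spread and the scaling, gave 99. DESeq2 called 195 genes on the same libraries. All 25 genes kept their direction in each of the 14 alternative settings run, but this was largely fixed in advance. In every one of them both MIA libraries lay outside all controls, so leaving libraries out could hardly reverse a sign. Only the setting with the excluded library added values to the compared groups. In the excluded library, 13 of the 18 lower genes lay within the range of the controls, 5 lay below it and none above. Of the 7 higher genes, 3 lay within that range there, 2 above it and 2 below.

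**Figure D1:**
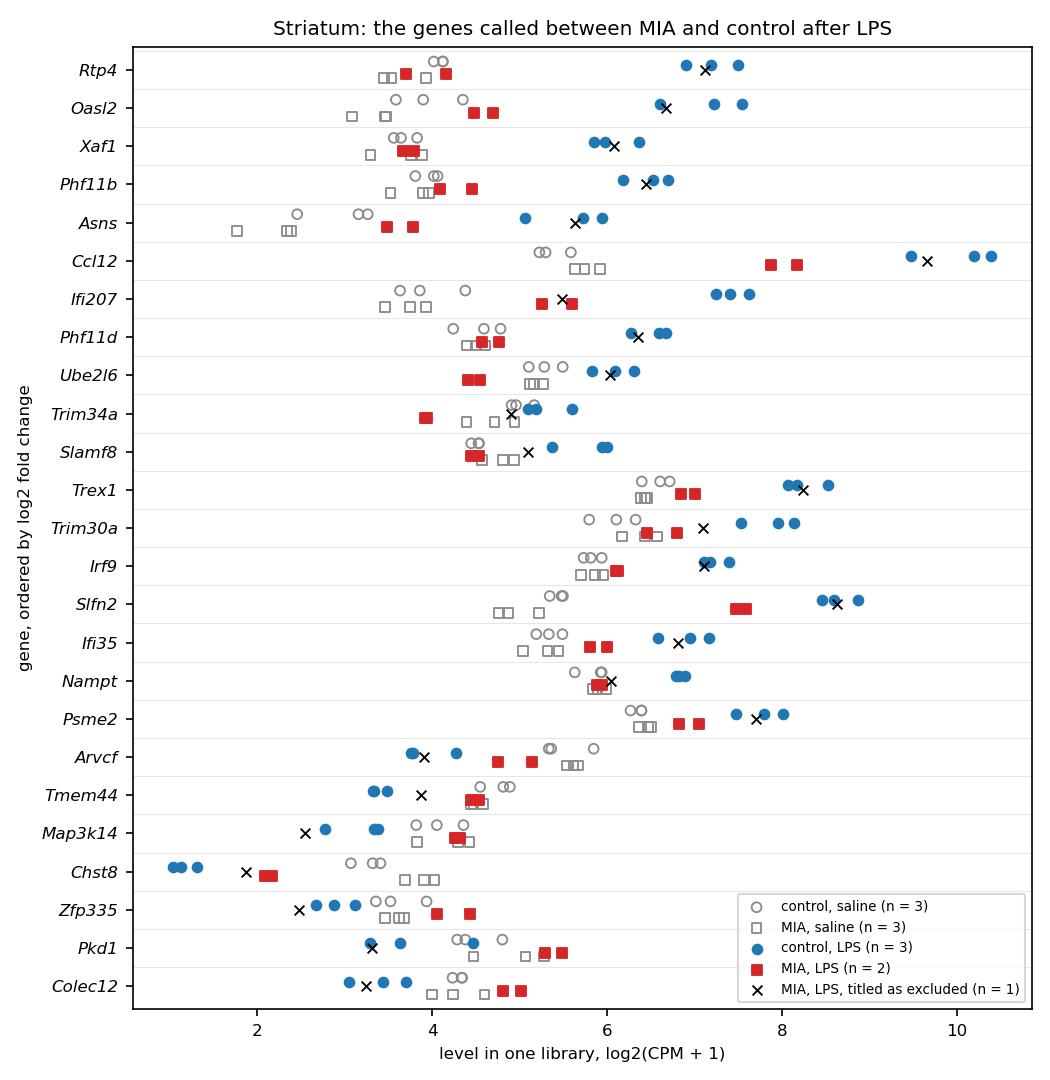
Level of each of the 25 called genes in each striatum library, as log2-transformed CPM. Control LPS libraries, the 2 MIA LPS libraries, the excluded MIA LPS library and the saline libraries of control and MIA are marked separately. The 2 MIA LPS libraries lie outside the LPS controls for every gene. The excluded library lies within the LPS controls for 13 of the 18 lower genes and 3 of the 7 higher ones.

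Among the factors that carry the interferon signal, Irf9 was lower and the receptors did not pass the test. Irf9 (ENSMUSG00000002325.15), a DNA-binding part of the complex that carries the type I interferon signal, stood at 137, 143 and 167 CPM in the control libraries and at 68.9 and 67.7 CPM in the MIA libraries. Both MIA libraries were near the saline controls, which held 52.1 to 60.3 CPM. The log2 fold change was -1.12 ± 0.19 (SE; adjusted p = 0.024). The excluded library held 137 CPM of Irf9, level with the lowest control. It was 1 of 22 tested members of the list of interferon receptors, JAK-STAT and IRF factors to be called, and the list's median log2 fold change was -0.02, the same as over all genes. DESeq2 called 4 of the 22. In bulk RNA, fewer cells of a type and less RNA per cell cannot be told apart, here or below.

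Irf7 and Stat2 had lower MIA values without passing the test. Irf7, a factor that amplifies interferon production, stood at 88.2, 74.8 and 138 CPM in controls and at 20.8 and 29.5 CPM in MIA, with no overlap (log2 fold change -1.99 ± 0.63, adjusted p = 0.30). Stat2, a signal transducer of type I interferon, stood at 38.6, 53.7 and 96.0 CPM in controls against 30.9 and 33.3 CPM in MIA (-0.97 ± 0.43, adjusted p = 0.51). The receptor chain genes overlapped between groups: Ifnar1 held 65.1 to 115 CPM in controls and 95.5 and 102 CPM in MIA, and Ifnar2 held 123 to 175 CPM and 165 and 187 CPM. Interferon beta itself, Ifnb1, was at 0, 0.161 and 0.222 CPM in controls and at 0 in both MIA libraries, too low for a comparison. Stat2, Ifnar1, Ifnar2 and Ifnb1 were picked for their place in the pathway after their values had been seen.

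The antiviral effectors were lower in 5 of 44 tested members, and none was higher, where 0.105% of all genes tested were lower. The median log2 fold change of the list was -1.25, against -0.02 over all genes. Both MIA libraries lay below all controls for 34 of the 44, against 10.6% of all genes. Oasl2 (ENSMUSG00000029561.17), a relative of the oligoadenylate synthetases that sense double-stranded RNA, stood at 148, 96.0 and 185 CPM in controls and at 21.2 and 25 CPM in MIA. Its MIA values were only slightly above the saline controls, at 11 to 19.4 CPM. It fell by 2.63 ± 0.53 on the log2 scale (adjusted p = 0.049), the weakest of the 25 calls.

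A pair of tripartite-motif genes, from a family of antiviral ubiquitin ligases, also fell. Trim30a (ENSMUSG00000030921.17), known to restrain TLR signalling, stood at 184, 280 and 247 CPM in controls and at 86.8 and 110 CPM in MIA (log2 fold change -1.27 ± 0.25, adjusted p = 0.046). Trim34a (ENSMUSG00000056144.14) stood at 33.3, 35.4 and 47.3 CPM in controls and at 14.4 and 14.1 CPM in MIA (-1.44 ± 0.28, adjusted p = 0.046). For Trim34a the MIA values after LPS were below every saline library of the striatum, which held 20.0 to 34.9 CPM, and it was the 1 lower gene that LPS did not raise in control cortex.

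Slfn2 (ENSMUSG00000072620.3), a Schlafen protein linked to quiescence of immune cells, stood at 351, 386 and 466 CPM in controls and at 177 and 191 CPM in MIA. The MIA values were below every control and far above the 26.2 to 44.1 CPM of the saline libraries (log2 fold change -1.12 ± 0.20, adjusted p = 0.027). Ifi35, an interferon-induced leucine zipper protein, stood at 142, 94.5 and 122 CPM in controls and at 54.7 and 62.7 CPM in MIA (-1.03 ± 0.20, adjusted p = 0.046). Among antiviral members that did not pass, Ifit1, which binds foreign RNA caps, had 67.1, 39.8 and 44.8 CPM in controls and 7.85 and 9.11 CPM in MIA (-2.58 ± 0.57, adjusted p = 0.086). Isg15, a ubiquitin-like modifier, had 15.9, 16.2 and 28.3 CPM in controls and 4.40 and 5.06 CPM in MIA (-2.09 ± 0.59, adjusted p = 0.22). Neither gene overlapped between groups. Ifit1 was named after its values had been seen.

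The list of other interferon-induced genes held the largest fall among the called genes. Of 37 tested members 5 were lower and none higher, where 0.105% of all genes tested were lower. The list's median log2 fold change was -1.08. Rtp4 (ENSMUSG00000033355.6), a chaperone of G protein-coupled receptors that interferon induces strongly, stood at 145, 119 and 180 CPM in controls and at 12 and 16.8 CPM in MIA. The MIA values were near those of the saline libraries, 9.91 to 16.4 CPM. Rtp4 fell by 3.36 ± 0.58 on the log2 scale, or 10.2-fold (adjusted p = 0.025). In the excluded library it stood at 138 CPM, within the controls, and with that library the log2 fold change was -1.38 (adjusted p = 0.546).

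Xaf1 (ENSMUSG00000040483.15), a pro-apoptotic partner of the inhibitor XIAP, stood at 81.2, 56.5 and 62.0 CPM in controls and at 12.8 and 11.7 CPM in MIA. Again the MIA values lay among the saline ones, at 8.81 to 13.8 CPM (log2 fold change -2.44 ± 0.43, adjusted p = 0.027). Ube2l6 (ENSMUSG00000027078.14), the enzyme that loads Isg15 for conjugation, stood at 77.9, 55.7 and 67.0 CPM in controls and at 20.3 and 22.3 CPM in MIA (-1.65 ± 0.29, adjusted p = 0.027). Those MIA values were below all 6 saline libraries of the striatum, at 33.4 to 44.0 CPM. Usp18, which removes Isg15 and dampens the interferon receptor, had 122, 74.6 and 133 CPM in controls and 10.1 and 16 CPM in MIA but did not pass (-3.07 ± 0.64, adjusted p = 0.060). It was named after its values had been seen.

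Phf11b and Phf11d, neighbouring genes for PHD-finger proteins that interferon induces, fell together. Phf11b (ENSMUSG00000091649.3) stood at 91.1, 71.6 and 103 CPM in controls and at 16 and 20.9 CPM in MIA (log2 fold change -2.26 ± 0.38, adjusted p = 0.024). Phf11d (ENSMUSG00000068245.14) stood at 101, 76.4 and 95.8 CPM in controls and at 22.8 and 26.1 CPM in MIA (-1.90 ± 0.36, adjusted p = 0.036). The 2 genes are similar copies, so the division of reads between them is uncertain. The same holds for Ifi207 and its relatives and for Trim30a and Trim30d.

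Their upstream sequences are shown because the genes moved together. They are the 250 bases before the start of each gene in RefSeq's annotation of GRCm38.p6, on the minus strand, with matches to the ISRE pattern (GAAA, any 2 bases, GAAA) in capitals. These coordinates belong to RefSeq's build alone, since the build behind the counts is not given in the sources used here. Phf11b lies at chr14:59341331-59341580 and Phf11d at chr14:59365491-59365740.
Phf11b: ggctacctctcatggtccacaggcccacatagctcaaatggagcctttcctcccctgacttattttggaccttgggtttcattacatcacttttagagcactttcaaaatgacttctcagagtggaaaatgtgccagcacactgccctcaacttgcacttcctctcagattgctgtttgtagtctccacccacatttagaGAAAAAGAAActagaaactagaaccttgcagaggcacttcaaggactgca
Phf11d: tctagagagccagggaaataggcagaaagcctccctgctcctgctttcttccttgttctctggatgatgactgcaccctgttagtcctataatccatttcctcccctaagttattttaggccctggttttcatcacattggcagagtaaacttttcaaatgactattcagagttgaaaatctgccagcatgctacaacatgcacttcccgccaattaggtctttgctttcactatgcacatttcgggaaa
Only the Phf11b window held the pattern, and neither held the gamma-activated site pattern TTCNNNGAA.

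The ISRE pattern was found on either strand in the windows of 4 of the 17 lower genes with an entry (23.5%), in 0 of 6 higher genes, in 39 of 109 genes of the interferon lists (35.8%) and in 407 of 12008 tested genes (3.39%). The 4 matches are shown in windows of at most 30 bases, 5′ to 3′ along the gene's own strand, with the match in capitals. A match on the opposite strand reads TTTC, any 2 bases, TTTC.
Ifi207: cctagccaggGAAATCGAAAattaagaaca
Phf11b: cacatttagaGAAAAAGAAActagaaacta
Slamf8: cccgggatgcTTTCGCTTTCaagac
Trim30a: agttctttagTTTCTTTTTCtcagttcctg
These windows are chr1:173741831-173741860 for Ifi207, chr14:59341361-59341390 for Phf11b, chr1:172590569-172590593 for Slamf8 and chr7:104465210-104465239 for Trim30a, all for genes on the minus strand. The capitals begin 41, 50, 15 and 36 bases before the start of the gene, in that order. The gamma-activated site pattern was in 0 of 17 lower genes and in 7.2% of all tested genes, and the NF-kB pattern (GGG, any 5 bases, CC) was in 7 of 17 lower genes, 6 of 6 higher genes and 64.8% of all. A match is a run of letters and was not tested as a binding site.

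The list of cytosolic nucleic acid sensors and the list of guanylate-binding proteins and immunity-related GTPases each held a called member. Trex1 (ENSMUSG00000049734.9), the exonuclease that clears DNA from the cytosol, stood at 286, 267 and 368 CPM in controls and at 127 and 114 CPM in MIA. Both MIA libraries lay below all controls and above the saline libraries, which held 82.5 to 104 CPM (log2 fold change -1.35 ± 0.21, adjusted p = 0.017). It was the 1 call among the 16 tested members of the sensor list, whose median was -0.49. Ifih1, a helicase that senses long double-stranded RNA, had 103, 79.5 and 95.2 CPM in controls and 34.9 and 39.7 CPM in MIA (-1.31 ± 0.27, adjusted p = 0.060), and was named after its values had been seen.

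Ifi207 (ENSMUSG00000073490.11), a PYHIN-family protein that the lists group with guanylate-binding proteins, stood at 196, 151 and 169 CPM in controls and at 37.2 and 47.5 CPM in MIA. The excluded library joined the MIA side for this gene, at 43.6 CPM. The log2 fold change was -2.02 ± 0.35 (adjusted p = 0.025) and -2 with the excluded library added (adjusted p = 0.0271). Of 23 tested members of the list it was the 1 called. The list's median was -1.57, and both MIA libraries lay below all controls for 18 of the 23, against 10.6% of all genes. Igtp, an immunity-related GTPase, had 314, 148 and 238 CPM in controls and 87.6 and 85.2 CPM in MIA (-1.43 ± 0.29, adjusted p = 0.051), and was named after its values had been seen.

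Over the 5 interferon lists together, 13 of 137 tested genes were lower and none higher, where 0.105% of all genes tested were lower. The median log2 fold change was -1.10 and 118 genes were below 0. Both MIA libraries lay below all controls for 86 genes and above them for 2, where the shares over all genes were 10.6% and 11.8%. Summed over the antiviral list, the MIA libraries held 1280 and 1470 CPM and the controls 2720 to 3820 CPM. The excluded library held 2510 CPM. The count of 13 fell to 0 without either MIA library, to 7 without control replicate 1 and to 1 with the excluded library. It was 48 without MIA cortex LPS replicate 3 and 51 with DESeq2.

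**Figure D2:**
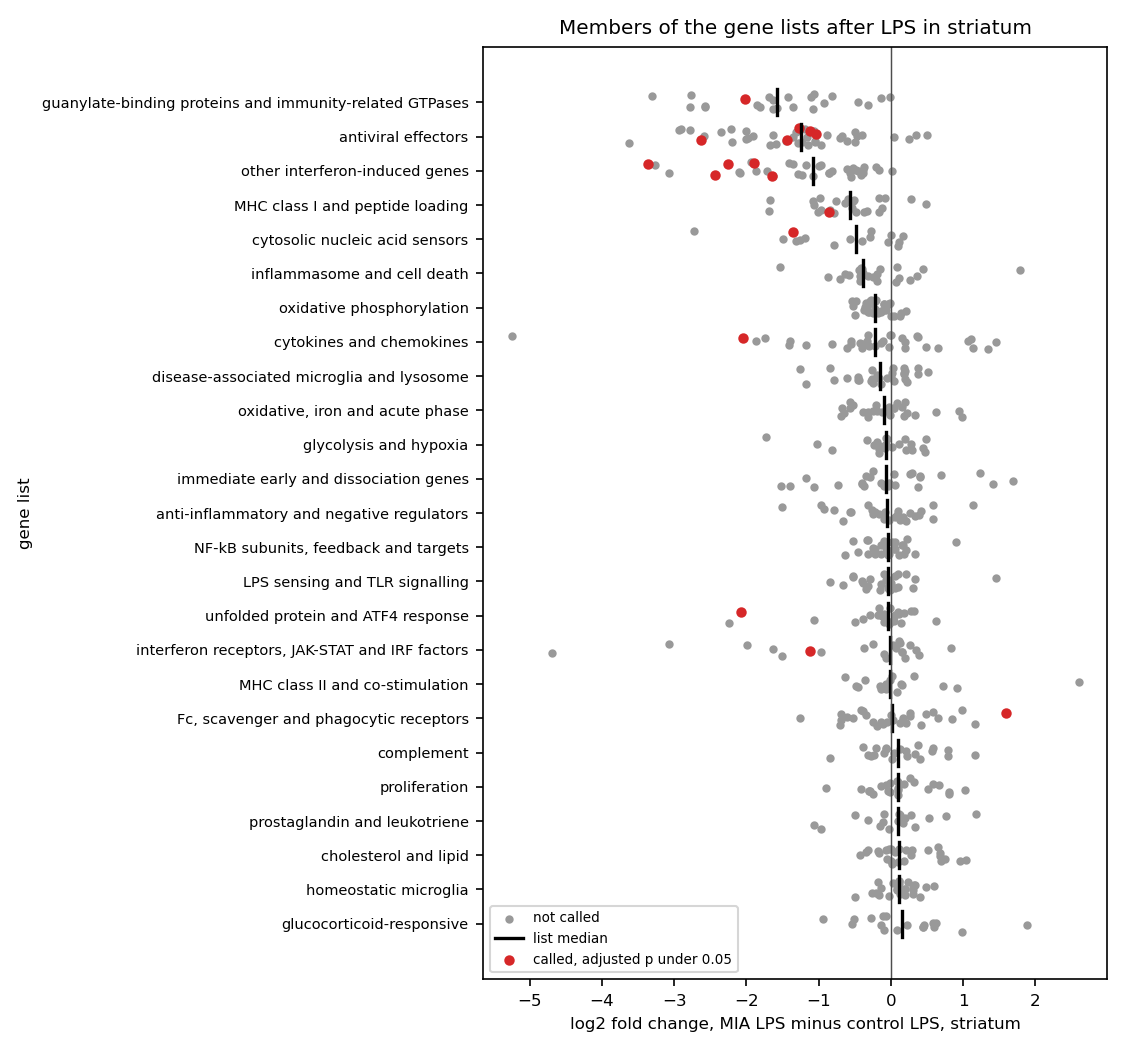
Log2 fold change (MIA LPS minus control LPS, striatum) of every tested member of each gene list, cell type marker lists left out. A line stands at 0, called members are in red and the list's median is marked. The medians of the antiviral list (-1.25) and of the guanylate-binding protein list (-1.57) lie well below 0, while the homeostatic microglia and NF-kB lists centre near 0.

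Antigen presentation by MHC class I, which interferon also raises, gave 1 called gene of 26 tested, where 0.105% of all genes tested were lower. The median was -0.57 and 24 genes were below 0. At an unadjusted p under 0.05 (edgeR) 16 were lower and 0 higher, against 4.65% and 4.43% of all genes. Both MIA libraries lay below all controls for 13 and above for 1, against 10.6% and 11.8% of all genes. DESeq2 called 6 lower and 0 higher. Psme2 (ENSMUSG00000079197.10), a subunit of a proteasome activator, stood at 257, 177 and 221 CPM in controls and at 112 and 131 CPM in MIA (log2 fold change -0.85 ± 0.17, adjusted p = 0.046). Its MIA values lay between the saline libraries, at 76.0 to 89.5 CPM, and the LPS controls. B2m, the light chain of all class I molecules, had 3490, 3960 and 5100 CPM in controls and 2210 and 2670 CPM in MIA and did not pass (-0.78 ± 0.17, adjusted p = 0.068). The heavy chain H2-K1 overlapped between groups, at 669 to 1150 CPM and 614 and 675 CPM. B2m and H2-K1 were named after their values had been seen. None of 17 tested class II and co-stimulation genes passed in edgeR or in DESeq2, 3 stood at an unadjusted p under 0.05, and their median was -0.01.

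Of 35 tested cytokines and chemokines, edgeR called Ccl12 alone and DESeq2 called Ccl12 and Ccl2. Ccl12 (ENSMUSG00000035352.3), a chemokine that draws monocytes through the receptor CCR2, stood at 1340, 712 and 1170 CPM in controls and at 234 and 288 CPM in MIA. Saline libraries held 36.4 to 59.5 CPM, so LPS-treated MIA libraries were above all of them and below all LPS controls. The log2 fold change was -2.04 ± 0.32 (adjusted p = 0.017). The excluded library stood at 805 CPM, within the controls, and with it the value was -1.26 (adjusted p = 0.342).

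Ccl2 and Cxcl10 did not pass in edgeR with all 23 libraries. Ccl2, which acts on the same receptor, had 333, 326 and 352 CPM in controls and 98.6 and 156 CPM in MIA, with no overlap (log2 fold change -1.41 ± 0.32, adjusted p = 0.086). Cxcl10, an interferon-induced chemokine for T cells, had 116, 102 and 125 CPM in controls and 48.1 and 39.1 CPM in MIA (-1.39 ± 0.41, adjusted p = 0.25). Without MIA cortex LPS replicate 3 the adjusted p was 0.042 for Ccl2 and 0.0481 for Cxcl10, and DESeq2 called Ccl2 (adjusted p = 0.0028) but not Cxcl10. In the excluded library Ccl2 and Cxcl10 stood above every control, at 354 and 147 CPM.

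Il1b and Tnf, both targets of NF-kB, did not pass either. Il1b, the precursor of interleukin 1 beta, had 800, 734 and 690 CPM in controls and 921 and 987 CPM in MIA, the MIA values being the higher ones (log2 fold change 0.36 ± 0.25, adjusted p = 0.71, unadjusted 95% interval -0.15 to 0.88). Tnf had 1440, 1790 and 2600 CPM in controls and 1470 and 1620 CPM in MIA, which overlap (-0.33 ± 0.29, adjusted p = 0.80, interval -0.93 to 0.27). These intervals leave room for differences of almost 1 on the log2 scale in one direction. None of the 30 tested genes of the NF-kB list was called in edgeR or DESeq2, and none stood at an unadjusted p under 0.05. Map3k14, a kinase of the alternative NF-kB route that was called higher (below), is not in that list. Of 28 LPS-sensing genes edgeR called none and DESeq2 1, with 2 lower and 1 higher at an unadjusted p under 0.05. The medians of both lists were -0.04. The receptor genes Tlr4 and Cd14 had log2 fold changes of -0.06 ± 0.28 and -0.04 ± 0.26 (adjusted p = 0.98 for each).

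Asns, Nampt and Slamf8 were the lower genes outside the interferon, class I and chemokine lists. Asns (ENSMUSG00000029752.12), asparagine synthetase and a target of the stress factor ATF4, stood at 52.0, 60.2 and 32.3 CPM in controls and at 10.2 and 12.7 CPM in MIA (log2 fold change -2.07 ± 0.39, adjusted p = 0.036). Saline libraries held 2.40 to 8.60 CPM. It was the 1 call among 25 genes of the unfolded protein and ATF4 response, whose median was -0.04. Atf4 itself overlapped between groups, at 59.3 to 225 CPM in controls and 99.8 and 131 CPM in MIA, and was named after its values had been seen.

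Nampt (ENSMUSG00000020572.8), the rate-limiting enzyme of NAD salvage, was tightly grouped at 118, 109 and 112 CPM in controls and at 58.0 and 60.3 CPM in MIA (log2 fold change -0.94 ± 0.16, adjusted p = 0.024). The MIA values lay within the saline libraries, 48.5 to 62.5 CPM, and the excluded library was at 64.8 CPM, below the controls too. Slamf8 (ENSMUSG00000053318.7), a SLAM-family receptor of macrophages, stood at 62.9, 40.4 and 60.6 CPM in controls and at 20.7 and 22.1 CPM in MIA (-1.35 ± 0.26, adjusted p = 0.046). Its MIA values were also near those of the saline libraries, 20.8 to 29.5 CPM. Nampt was named because it was called, although its size put it outside the rule for named genes.

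Of the 7 higher genes, 6 were in none of the lists. Colec12 (ENSMUSG00000036103.9), a collectin-type scavenger receptor, stood at 12, 7.29 and 9.86 CPM in controls and at 27.1 and 31.4 CPM in MIA (log2 fold change 1.59 ± 0.29, adjusted p = 0.031). Saline libraries lay between the groups, at 15 to 23.2 CPM. It was the 1 call among 30 Fc, scavenger and phagocytic receptors, whose median was 0.02, and DESeq2 called 3 higher and 3 lower there. Pkd1 (ENSMUSG00000032855.6), polycystin of primary cilia, stood at 8.74, 11.4 and 21.1 CPM in controls and at 38.2 and 43.9 CPM in MIA (1.58 ± 0.30, adjusted p = 0.036). Zfp335, a zinc finger transcription factor, stood at 6.34, 5.36 and 7.68 CPM in controls and at 20.6 and 15.6 CPM in MIA (1.49 ± 0.24, adjusted p = 0.017).

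For the remaining rises the MIA values lay near the saline level or between it and the LPS controls. Map3k14, the kinase NIK of the alternative NF-kB route, stood at 5.83, 9.43 and 9.12 CPM in controls and at 18.2 and 19 CPM in MIA, and its saline libraries at 13.1 to 20.5 CPM (log2 fold change 1.20 ± 0.23, adjusted p = 0.046). Tmem44, a transmembrane protein, stood at 9.02, 9.11 and 10.2 CPM in controls and at 22.1 and 20.8 CPM in MIA, with saline libraries at 20.8 to 28.6 CPM (1.18 ± 0.19, adjusted p = 0.017). Arvcf, a catenin of cell junctions, stood at 12.5, 12.7 and 18.3 CPM in controls and at 34.3 and 26.0 CPM in MIA, below the 39.3 to 56.5 CPM of saline (1.05 ± 0.19, adjusted p = 0.031). The MIA library pair was above all LPS controls in each. Chst8, a sulfotransferase below the 10 CPM floor of the rule for named genes, had 1.06, 1.18 and 1.48 CPM in controls and 3.25 and 3.51 CPM in MIA (1.44 ± 0.29, adjusted p = 0.046).

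Transcript length moved with the direction of change. Over 17115 genes with a known exon length, the median log2 fold change went from -0.188 in the shortest group of 5 equal ones (0.13 to 2.12 kb) to 0.141 in the longest (7.13 to 123.18 kb). The 18 lower genes measured 0.54 to 6.37 kb and the 7 higher genes 4.74 to 17.42 kb. The part of length in the result was not tested.

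Markers of other CD11b-positive cells were compared in the same way. Of 15 tested markers of border-associated macrophages, which line vessels and meninges, none was called by edgeR and 3 by DESeq2. At an unadjusted p under 0.05 (edgeR), 8 were higher, against 4.43% of all genes tested. Both MIA libraries lay above all controls for 9, against 11.8% of all genes. The median log2 fold change of the 15 was 0.86. Of these markers 2 were below 0, Dab2 (-0.16 ± 0.28) and Maf (-0.46 ± 0.38), both named after their values had been seen. Summed, the 15 markers held 1700 and 2070 CPM in MIA and 976 to 1250 CPM in controls, with 582 CPM in the excluded library. Stab1, a scavenger receptor of these cells, had 163, 272 and 350 CPM in controls and 524 and 513 CPM in MIA (0.98 ± 0.22, adjusted p = 0.086). Cd163, the haemoglobin scavenger receptor, had 22.8, 20.7 and 34.8 CPM in controls and 93.1 and 110 CPM in MIA (1.96 ± 0.50, adjusted p = 0.14), and was named after its values had been seen. None of these 15 markers was at 0 in any of the 5 libraries. Their part in the 7 rises was not tested.

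For the other cell types the sums mostly overlapped. Blood monocyte markers held 986 and 1320 CPM in MIA and 608 to 1200 CPM in controls, and neutrophil markers 936 and 1160 CPM and 1090 to 1480 CPM. Lymphocyte markers held 152 and 215 CPM against 200 to 386 CPM. The 6 erythrocyte markers separated the groups at 22.1 and 57.9 CPM in MIA and 140 to 205 CPM in controls, with a median log2 fold change of -2.12. Hba-a2, an alpha globin, had 62.0, 53.6 and 68.3 CPM in controls and 17.5 and 7.27 CPM in MIA (-2.31 ± 0.80, adjusted p = 0.36). None of these 4 lists had a called member in edgeR or DESeq2, and their part in the falls was not tested. At an unadjusted p under 0.05 stood 2 of the monocyte, 0 of the neutrophil, 3 of the lymphocyte and 4 of the erythrocyte markers. Over all genes tested that share was 9.08%.

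**Figure D3:**
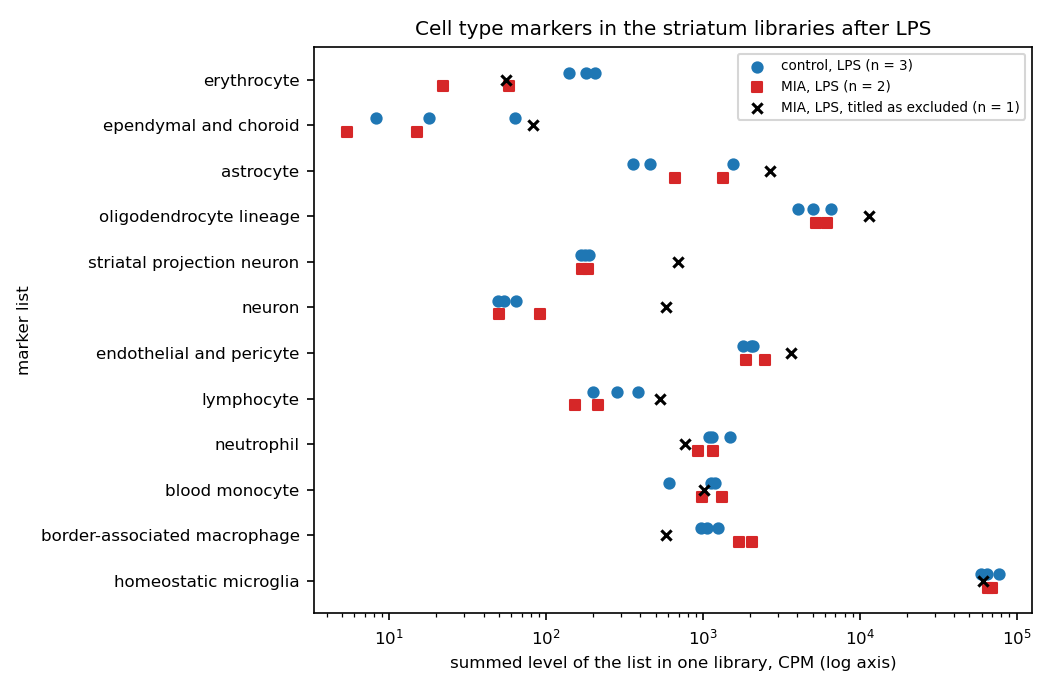
Summed level (CPM, log axis) of each marker list in each striatum library after LPS, by group, with the excluded MIA library as a cross. The 2 MIA libraries lie above the controls for border-associated macrophage markers (1700 and 2070 against 976 to 1250 CPM) and below them for erythrocyte markers, and the excluded library lies far to the right for neuron markers (583 CPM).

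The genes of resting microglia showed no called difference. P2ry12, the ADP receptor of surveying microglia, had 1020, 975 and 1030 CPM in controls and 834 and 1010 CPM in MIA (log2 fold change -0.13 ± 0.19, adjusted p = 0.91, interval -0.53 to 0.27). Tmem119 overlapped fully, with 1860 to 3500 CPM in controls and 2750 and 2990 CPM in MIA (0.13 ± 0.24, adjusted p = 0.94). Cx3cr1, the fractalkine receptor, held 4480 to 6610 CPM in controls and 5690 and 6150 CPM in MIA (0.09 ± 0.16, adjusted p = 0.93). None of the 27 members of the homeostatic list was called by edgeR or DESeq2, and 2 stood higher at an unadjusted p under 0.05. EdgeR also called no gene of complement (22 tested, median 0.09), disease-associated and lysosomal genes (30, -0.15), oxidative phosphorylation (39, -0.22), glycolysis (23, -0.07), cholesterol and lipid genes (26, 0.11), proliferation (25, 0.10) and inflammasome genes (25, -0.38). In these 7 lists the genes at an unadjusted p under 0.05 numbered 4, 7, 7, 1, 5, 0 and 7, against 9.08% of all genes. Those called by DESeq2 numbered 0, 3, 1, 0, 0, 0 and 1, in the same order. Of the 39 oxidative phosphorylation genes, 35 were below 0. Both MIA libraries lay below all controls for 18 of them and above for 1, against 10.6% and 11.8% of all genes. Their sums were 4810 and 4860 CPM in MIA, 5090 to 5210 CPM in controls and 7380 CPM in the excluded library.

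A gene's place in the LPS response was read from control cortex, whose 6 libraries are not among those compared here. The mice may be the same ones, however, so these classes may not be independent of the striatum controls. The part of shared mice in the values below was not tested. In control cortex LPS raised 10.9% of the genes tested and lowered 7.25% (edgeR, adjusted p under 0.05), 947 and 640 of them at least 2-fold. Of the raised genes, 16 were lower in MIA striatum after LPS and none higher (1.69% called), their median log2 fold change was -0.235 with 68% below 0, and both MIA libraries lay below all controls for 31.3%, against 10.6% of all genes. Of the lowered genes, 2 were higher and none lower, their median was 0.21, and both MIA libraries lay above all controls for 28.1%, against 11.8%. The 14025 genes not called for LPS had a median of -0.01.

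Raised genes inside and outside the interferon lists had unlike medians. The 83 raised genes of the interferon lists had a median of -1.41, with 11 called, 97.6% below 0 and both MIA libraries below all controls for 85.5%. The other 864 raised genes had a median of -0.18, with 5 called and 26% below all controls. The 25 raised cytokines and chemokines had a median of -0.22. With the excluded library the median over the raised genes was -0.15 and over the lowered genes 0.12. No test was run between these classes.

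**Figure D4:**
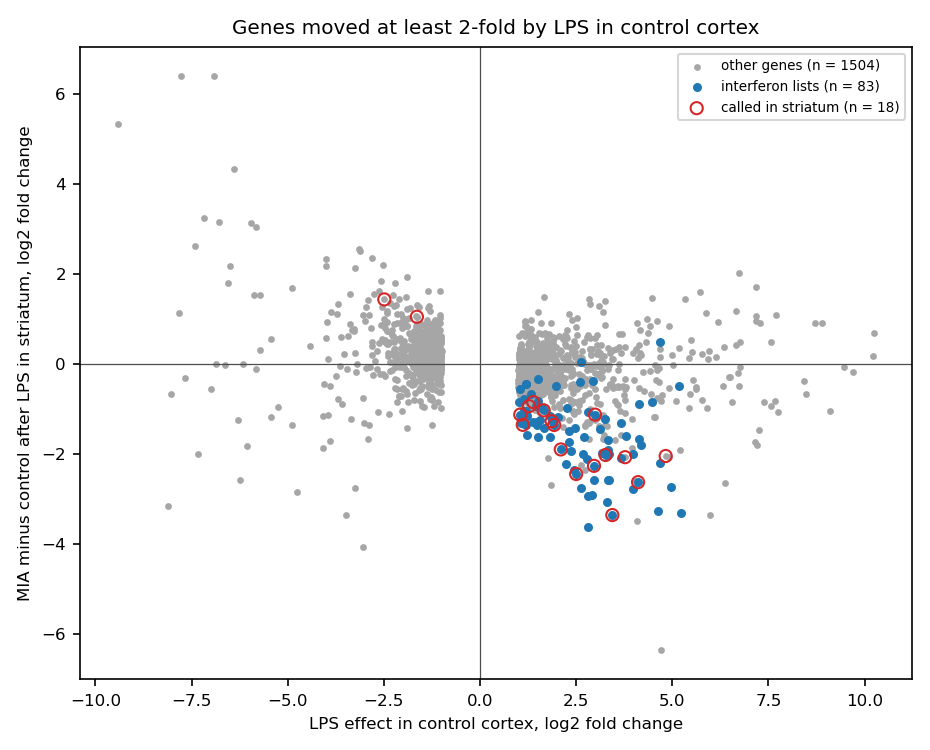
LPS effect in control cortex (log2 fold change, horizontal) against the MIA minus control difference after LPS in striatum (log2 fold change, vertical) for genes moved at least 2-fold by LPS in control cortex, with the interferon-list genes and the called genes marked. Raised genes of the interferon lists lie almost all below 0 (97.6%), and the other raised genes centre near -0.18.

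Beside this, LPS was compared with saline within each striatum group. These comparisons share libraries with the one above, so the values are set side by side only. In control striatum LPS raised 12.7% of genes and lowered 8.15%, and in MIA striatum 6.93% and 3.31%. These shares do not rest on equal numbers of libraries, with 3 LPS libraries in control striatum and 2 in MIA striatum. In control cortex edgeR called 3114 genes for LPS, and 2216 to 3049 with 1 of its libraries left out. The part of library number in the striatum shares was not tested. LPS raised Rtp4 by 3.21 ± 0.49 (log2) in control striatum (edgeR, adjusted p = 7.2e-05) and by 0.32 ± 0.51 in MIA striatum (adjusted p = 0.79). Ccl12 rose by 4.73 ± 0.31 in controls and by 2.28 ± 0.30 in MIA (adjusted p = 3.3e-09 and 3.0e-05). Slfn2 rose in both groups, by 3.24 ± 0.19 and 2.61 ± 0.20. Nampt had a change of 1.01 ± 0.14 in controls (adjusted p = 2.6e-05) and of 0.00 ± 0.15 in MIA (adjusted p = 1.0).

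Whether the MIA difference depended on LPS was tested with the MIA by LPS interaction in striatum, and no gene passed after adjustment. At an unadjusted p under 0.05 stood 1323 genes (7.72%), and DESeq2 called 34. Among the 25 genes the smallest adjusted p was 0.068, for Ccl12 (interaction -2.45 ± 0.41 on the log2 scale) and for Tmem44 (1.45 ± 0.25). The interaction includes the libraries by which the 25 genes were called, so their own interaction values are given as a description. Without MIA cortex LPS replicate 3 in the estimate of the spread, 23 genes passed.

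At rest, no gene differed between MIA and control striatum (edgeR), with 842 genes at an unadjusted p under 0.05 (4.91%) and 1 call by DESeq2. The 18 genes that were lower after LPS had resting log2 fold changes from -0.97 to 0.40, with a median of -0.09, and 2 stood at an unadjusted p under 0.05. Asns had the lowest resting value, -0.97 ± 0.34 (adjusted p = 0.92), and Ccl12 the highest, 0.40 ± 0.27 (adjusted p = 0.92). The libraries of the 2 states are separate. Of the 797 genes lower after LPS at an unadjusted p under 0.05, 21 (2.63%) were also lower at rest, and these were 5.87% of the 358 genes lower at rest. Over all genes tested, 2.09% were lower at rest and 4.65% lower after LPS, so both shares were near the background.

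In frontal cortex after LPS, which uses 6 other libraries whose mice may be the same ones, no gene was called (837 at an unadjusted p under 0.05, 4.88%; 41 by DESeq2). All 18 genes lower in striatum were below 0 in cortex, at log2 fold changes of -1.72 to -0.63 with a median of -1.11, and each had an unadjusted p under 0.05. Rtp4 stood at 149, 209 and 229 CPM in control cortex and at 23.3, 20.5 and 135 CPM in MIA cortex. Ccl12 stood at 1410, 1410 and 1170 CPM and at 346, 333 and 823 CPM. In both genes the third MIA library lay between the other MIA libraries and the controls. That library was closer to the control mean than to the mean of the other MIA cortex libraries for 14 of the 18 lower genes.

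Leaving out any cortex LPS library other than MIA replicate 3 gave 0 to 2 calls in cortex. Without MIA cortex LPS replicate 3, 89 genes passed in cortex, 82 lower and 7 higher. Among them were 16 of the 18 genes lower in striatum and none of the 7 higher ones. That library lay nearer the controls for most of these 18 genes, so the recount is a description and not a test. With that library left out, Rtp4 had a cortex log2 fold change of -3.15 ± 0.25 (edgeR, adjusted p = 1.5e-06), beside -3.36 in striatum. Colec12 had 0.43 ± 0.27 (adjusted p = 0.84), beside 1.59. At an unadjusted p under 0.05, 245 genes were lower in both regions, 30.7% of the 797 in striatum and 51.5% of the 476 in cortex. Over all genes tested, 4.65% were lower in striatum and 2.78% in cortex. Higher in both were 77 genes, 10.1% of the 759 in striatum and 21.3% of the 361 in cortex. Over all genes tested, 4.43% were higher in striatum and 2.11% in cortex.

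The difference between the regions was itself tested and no gene passed (edgeR; 460 at an unadjusted p under 0.05, 2.68%; 1 by DESeq2). This comparison also includes the striatum libraries by which the 25 genes were called, and the adjusted p was 1 for each of them. At an unadjusted p under 0.05 stood 6 of the 7 higher genes and 1 of the 18 lower ones, given as a description. Among the higher genes Chst8 had a regional difference of 1.64 ± 0.39, where the cortex value was -0.21 ± 0.26.

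**Figure D5:**
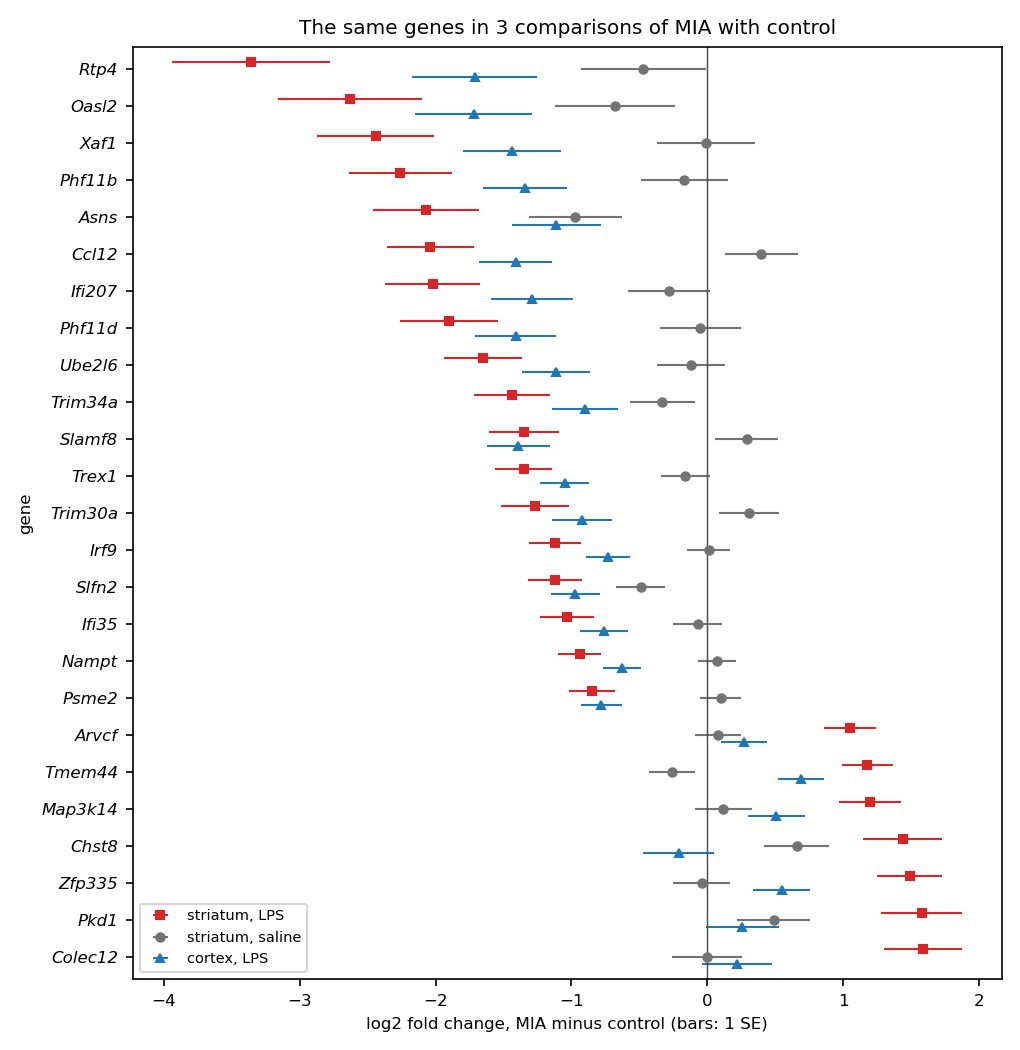
Log2 fold change (MIA minus control, bars 1 SE) of the 25 called genes in striatum after LPS, striatum after saline and cortex after LPS. The 18 lower genes also lie below 0 in cortex (-1.72 to -0.63) and scatter from -0.97 to 0.40 at rest.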

How the data were processed

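RNA of CD11b-sorted cells was sequenced with an oligo-dT, Smart-Seq2-like library protocol. The authors deposited expected counts per gene and library (24 libraries, 55487 genes), made with STAR and RSEM, and DESeq2 was also used, per the submitters' processing notes. Tool versions, genome build and annotation are not given in the sources used here. Of all values 6.92% were not whole, and expected counts were rounded before testing. Symbols were found for 55141 identifiers.

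With R 4.3.3 and edgeR 4.0.16 (limma 3.58.1 underneath), 23 libraries in 8 groups were fitted together (filterByExpr, minimum count 10, minimum total 15, 17139 genes, TMM scaling, quasi-likelihood, 15 residual degrees of freedom). P-values are two-sided and adjusted by Benjamini and Hochberg over all genes of a comparison. CPM use TMM-scaled totals, and values of the excluded library come from a scaling of all 24. The SE is the one implied by the F statistic. DESeq2 1.42.0, other scaling, no filter, a replicate block, other sets of libraries and each replicate left out in turn were the alternatives. The scripts were tested on simulated data.

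Members and gene lists (36 lists) were chosen with earlier results of these data known. Named genes were called genes of at least 10 CPM without overlap (up to 15 per direction, no predicted names), up to 5 called members per list or its 2 most abundant ones, and 13 genes of interest. Exceptions are stated. Exon lengths came from GENCODE M21, by gene identifier. Promoters came from RefSeq's table for GRCm38.p6. The table holds 300 bases per gene, and the 50 after the start were not used. Of the genes of interest, 1 is not reported here.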

Additional observations from a re-analysis of the deposited data

Results flagged for a closer look

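The library titled as excluded, MIA striatum LPS replicate 3, stayed out of the main fits, and some of its values lay above every control striatum LPS library. Its neuron markers summed to 583 CPM (highest control 64.6 CPM) and its striatal projection neuron markers to 691 CPM (188 CPM). Oligodendrocyte lineage markers summed to 11400 CPM (6560 CPM), astrocyte markers to 2680 CPM (1550 CPM), endothelial and pericyte markers to 3640 CPM (2080 CPM), lymphocyte markers to 529 CPM (386 CPM) and ependymal and choroid markers to 83.1 CPM (63.2 CPM). Mitochondrial genes took 6.16% of its counts (4.37%). Of the called genes, Tmem44 at 13.6 CPM (10.2 CPM) and Chst8 at 2.67 CPM (1.48 CPM) were above every control, as they were in the MIA libraries used.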

How the results depend on the processing

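The count of 25 called genes (18 lower, 7 higher) was 21 with DESeq2's size factors, 81 (60 and 21) with no filter on low counts, 195 (143 and 52) with DESeq2's test, 1 (1 and 0) with the excluded library and 0 (0 and 0) when only the 5 compared libraries were fitted, where 736 genes stood at an unadjusted p under 0.05. With the 11 striatum libraries alone it was 43 (36 lower). Leaving out each of the 5 compared libraries or MIA cortex LPS replicate 3 gave 1 to 99 calls, 1 to 77 lower and 0 to 52 higher. The 1 followed the loss of either MIA striatum LPS library and the 99 the loss of MIA cortex LPS replicate 3. Leaving out the third replicate of every group, a setting chosen after seeing the data, gave 142 (75 and 67). With a replicate block the counts were 42 (34 lower, 8 higher). Same-numbered libraries had correlated deviations (0.151 for number 1 and 0.142 for number 2), but there are only 2 pairs. The deviations of the 2 MIA libraries mirror each other exactly, so the 2 values are not independent. No label says that the numbers pair animals. All 25 genes kept their direction in the 14 settings, which their separation in the same libraries largely fixed in advance.

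At rest, DESeq2 called 1 gene and the added setting 6, against 0. In cortex after LPS the 0 calls became 27 with no filter, 41 with DESeq2, 13 with the replicate block, 80 in the added setting and 0 to 89 with 1 of its 6 libraries left out. The interaction's 0 became 1 with no filter, 34 with DESeq2, 24 in the added setting and 0 to 23 with 1 of its libraries or MIA cortex LPS replicate 3 left out. The regional difference gave 1 call with DESeq2. The cause of these changes was not tested. Of the named-gene values under alternatives, 1042 stayed on their side of the threshold, 138 lost it, 23 gained it and none changed sign past it. With 2 libraries in a group, the estimate of the spread rests largely on the other groups of the fit.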
